A study of Mus musculus with 10 samples.

Results

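The HoxD cluster is a row of 9 homeobox genes on mouse chromosome 2, and DNA methylation across it was measured in 10 embryos of embryonic day 7.5, the stage of gastrulation. The region was taken as positions 74.66 to 74.77 Mb of chromosome 2 in the mm10 build, and every CpG cytosine of the deposited count table that lies in it was kept. This gave 1281 of the 2391795 cytosines in the table, 605 on the plus and 676 on the minus strand. All 9 genes lie inside the region in the RefSeq annotation (GRCm38.p6, the assembly behind mm10). The assay was reduced representation bisulfite sequencing, in which CpG-rich fragments are enriched and bisulfite converts unmethylated cytosines before sequencing. By the labels, all 10 embryos came from the study's second experiment, 5 as controls and 5 in the arsenic group. DNA was prepared from each embryo separately. The deposited count table carries F2emb in its name, a term that the sample titles do not explain. Neither strain, sex, arsenic dose nor timing was given in the sources used here.

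The study compared control with arsenic embryos, but the columns of its table carry only the numbers 1 to 10. These numbers match no embryo and no group, so that comparison was not made. All values below describe the 10 libraries together and say nothing about arsenic. Each value is a methylation level, the percentage of reads that are methylated at a cytosine, averaged over the cytosines of a region. The level from the summed counts of the 10 libraries is given first, then the lowest, median and highest library. Summed over the whole table, coverage ran from 94583116 to 127102232 reads per library, and within HoxD it ran from 44133 to 64566. The median coverage of a HoxD cytosine was between 27 and 44 reads over the libraries. Embryos were measured whole, so a low level cannot be told apart from full methylation in a few cells.

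Hox genes encode transcription factors that give cells their position along the head-to-tail axis, and the genes of a cluster are switched on in the order in which they lie. In HoxD, Hoxd1, Hoxd3 and Hoxd4 lie at the end that is active early and at the front of the body, and Hoxd9 to Hoxd13 lie at the end that later acts in the trunk, limbs and genitalia. Before activation the clusters are held silent mainly by Polycomb proteins, which mark histones and favour CpG-rich DNA that lacks methylation.

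The promoter sequences show where the measured cytosines sit. The 250 bases before the annotated start are printed for the 6 starts with a measured cytosine there. They come from RefSeq (GRCm38.p6, plus strand, 5′ to 3′), and capitals mark the CpGs with a measured cytosine on at least 1 strand. The Hoxd12 stretch (chr2:74674763-74675012) and the Hoxd4 stretch (chr2:74721728-74721977) were partly methylated. The stretches before the second Hoxd11 start (chr2:74682073-74682322), before Hoxd10 (chr2:74691641-74691890), before Hoxd9 (chr2:74697513-74697762) and before Hoxd1 (chr2:74762730-74762979) had lower levels.
Hoxd12: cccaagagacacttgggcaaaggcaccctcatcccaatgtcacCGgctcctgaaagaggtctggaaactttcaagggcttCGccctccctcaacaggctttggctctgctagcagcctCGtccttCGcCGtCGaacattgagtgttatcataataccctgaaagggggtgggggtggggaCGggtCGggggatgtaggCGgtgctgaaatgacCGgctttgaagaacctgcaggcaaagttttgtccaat
Hoxd4: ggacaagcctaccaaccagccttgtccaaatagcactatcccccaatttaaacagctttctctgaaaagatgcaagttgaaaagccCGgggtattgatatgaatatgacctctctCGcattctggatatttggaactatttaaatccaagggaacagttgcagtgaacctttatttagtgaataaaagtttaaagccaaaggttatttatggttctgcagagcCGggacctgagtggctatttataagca
Hoxd11, second start: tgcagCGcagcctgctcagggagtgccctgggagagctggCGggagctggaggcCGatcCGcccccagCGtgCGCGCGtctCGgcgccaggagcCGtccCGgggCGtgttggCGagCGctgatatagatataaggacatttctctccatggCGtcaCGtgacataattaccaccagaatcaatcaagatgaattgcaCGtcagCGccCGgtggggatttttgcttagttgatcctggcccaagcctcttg
Hoxd10: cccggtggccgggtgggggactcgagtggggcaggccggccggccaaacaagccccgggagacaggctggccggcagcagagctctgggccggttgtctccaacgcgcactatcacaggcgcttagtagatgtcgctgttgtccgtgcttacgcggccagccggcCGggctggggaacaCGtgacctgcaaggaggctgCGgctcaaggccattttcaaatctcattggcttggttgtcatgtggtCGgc
Hoxd9: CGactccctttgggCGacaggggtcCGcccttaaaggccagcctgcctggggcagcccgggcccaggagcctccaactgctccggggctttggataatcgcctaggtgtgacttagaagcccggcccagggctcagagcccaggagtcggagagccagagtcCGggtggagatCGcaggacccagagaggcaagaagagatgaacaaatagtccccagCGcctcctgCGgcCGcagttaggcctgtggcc
Hoxd1: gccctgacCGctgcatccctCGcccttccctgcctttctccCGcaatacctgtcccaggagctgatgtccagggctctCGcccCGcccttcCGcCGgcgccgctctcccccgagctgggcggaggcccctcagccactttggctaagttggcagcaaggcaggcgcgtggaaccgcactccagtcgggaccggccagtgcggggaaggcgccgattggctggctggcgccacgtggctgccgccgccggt

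In the Hoxd12 stretch all 10 CpGs were measured, each on the minus strand only, and averaged 20.3% (13.9%, 19.8% and 25.1% in the lowest, median and highest library). Counting bases from 1 at the 5′ end, the most methylated was the cytosine at base 82 with 37.6%, and the least was the cytosine at base 182 with 7.26%. The Hoxd4 stretch is poor in CpGs and holds only 3, all measured on both strands, at 25.7% (20.95% to 31.4% over the libraries). The strands of its CpGs lay close together, at 22.4% and 22.4% for the first CpG and 19.6% and 19.9% for the second. The third CpG was higher, at 36.3% and 33.6%. The second Hoxd11 start had 19 of 20 CpGs measured at 3.34% (1.899% to 4.95%), with no cytosine above 10.7%. Hoxd1 had 7 of 24 CpGs measured at 3.82% (1.18% to 6.997%), and Hoxd9 had 8 of 13 at 7.40% (5.44% to 9.60%). Hoxd10 had 4 of 20 at 3.62% (0% to 8.57%). The library ranges of Hoxd12 and Hoxd4 lay wholly above those of these 4 stretches.

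Among the 6 measured stretches, the 3 with the fewest CpGs had the highest levels. CpG (the letters CG, which read the same on both strands) occurs in 92.1% of the 32851 promoter stretches of this length in the table, with a median of 6 per stretch. Hoxd4 has 3 and Hoxd12 has 10, while Hoxd9 has 13, the second Hoxd11 start has 20 and Hoxd1 has 24. Hoxd10 also has 20. Over so few stretches this is a description only. The stretches before Hoxd13, Hoxd8, Hoxd3 and the first Hoxd11 start have 31, 6, 12 and 2 CpGs, of which none was measured, so the levels at those genes come from further away.

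Over the whole region HoxD had a low but widespread methylation. Its mean level was 13.97%, with 12.9% in the lowest library (7), a median of 14.2% and 14.7% in the highest (10). All 10 libraries lay within 1.799 points of each other. The counts summed to 545556 reads, and 15.05% of these carried methylation (95% Wilson interval 14.95% to 15.1%). Such an interval covers counting error only, and it is too narrow because a read counts at each CpG it spans. Autosomal cytosines as a whole averaged 41.6% (40.3% to 42.8%), and chromosome 2 averaged 39.4%.

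HoxD levels gathered between 5% and 20%. Of its 1281 cytosines, 587 (45.8%) were in this class, against 8.41% of autosomal cytosines. Only 11 HoxD cytosines (0.859%) were at 50% or more, against 48.4% of autosomal cytosines. The shares under 5% were close, 351 cytosines (27.4%) in HoxD against 25% over the autosomes, and the class of 20 to 50% held 332 (25.9%) against 18.2%. These shares are descriptions, and no test was made of them.

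The same held for tiles of 1000 bp. Of the 110 tiles of the region, 46 held at least 3 measured cytosines. Of these, 30 (65.2%) had a level of 5 to 20%, a class that took 5.02% of the 195784 autosomal tiles. HoxD had 5 tiles (10.9%) under 5%, where the background was 8.34%, and 11 (23.9%) at 20% or more, where it was 86.6%. In single libraries the number of HoxD tiles at 5 to 20% ran from 23 to 30, with 10 tiles in that class in all 10 libraries. At 20% or more, 8 tiles were in the class in all libraries, and under 5%, 2 tiles were.

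CpG-dense tiles showed the pattern from the other side. Tiles with 40 or more measured cytosines, a limit set after the values were seen, were under 5% in 69.4% of 8059 autosomal cases but in 4 of 12 (33.3%) in HoxD. Another 6 HoxD tiles (50%) were at 5 to 20%, against 17.4%, and 2 (16.7%) were at 20% or more, against 13.2%. Of these 12 tiles, 7 (58.3%) were at 10% or more, against 20.8%. The median of the 6 HoxD tiles with 60 or more cytosines was 7.94%, and that of the 2951 such autosomal tiles was 1.38%. At the sparse end the order turned. Over tiles of 10 to 19 cytosines, HoxD had a median of 16.6% over 19 tiles and the autosomes had 58.96%.

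**Figure D1:**
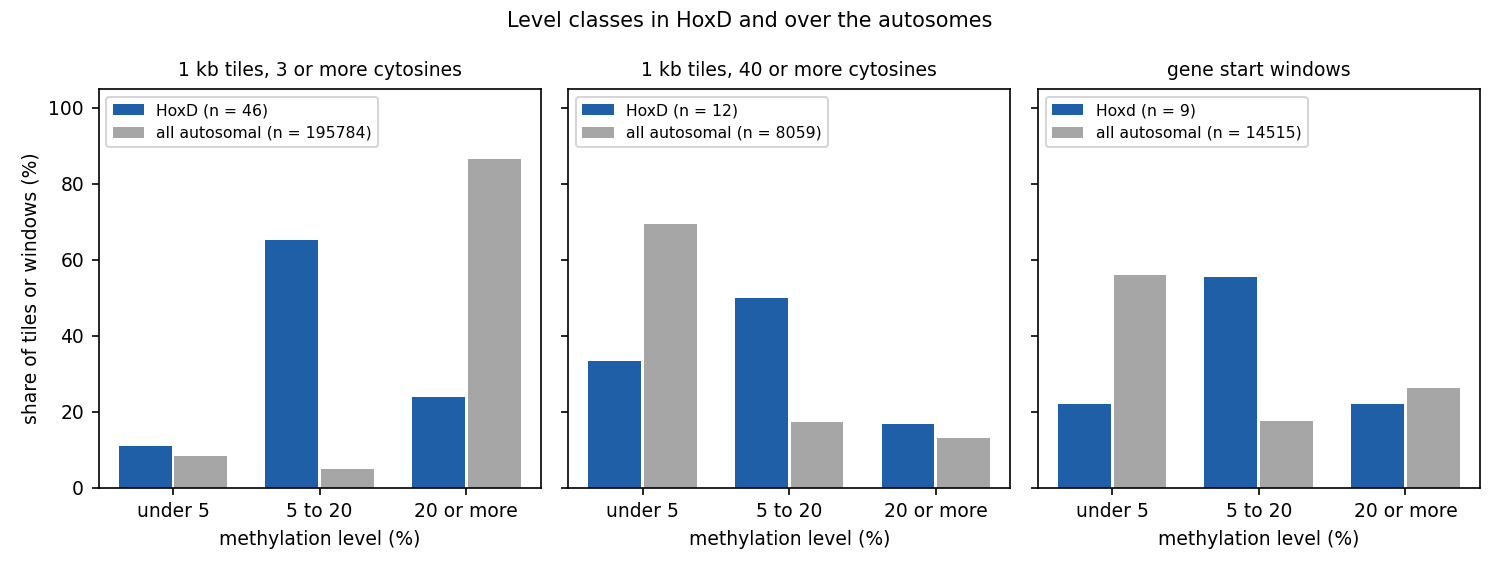
Share (%, bars from 0) of HoxD and of all autosomal 1 kb tiles, of tiles with 40 or more cytosines and of gene start windows in 3 classes of methylation level from summed counts. The class of 5 to 20% holds 65.2% of HoxD tiles and 5.02% of autosomal tiles.

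Along the cluster the level fell towards the middle and rose again on the Hoxd4 side. At the Hoxd1 start it fell once more, with adjoining tiles at 6.18% and 5.62%. On the Hoxd13 side, the tiles of the Hoxd13 start and of the second Hoxd11 start were dips between tiles of higher level, and Hoxd12 was a peak. Averaged from each gene start to the next, the level was lowest between the starts of Hoxd9 and Hoxd3. Cytosines from the Hoxd9 start to the Hoxd8 start averaged 4.14% (2.85% to 5.91% over the libraries), and those from there to the Hoxd3 start 1.95% (0.990% to 2.80%). From the Hoxd4 start to the Hoxd1 start, a stretch of 527 cytosines, the mean was 19.3% (17.0%, 19.5% and 20.7%). The library ranges of these low means and of this high stretch were more than 10 points apart. The low means rest mostly on a tile in Hoxd9 (78 cytosines at 1.55%) and a tile in Hoxd8 (64 at 0.781%). Tiles between them were at 10.8%, 12.4% and 12.5%, and their library ranges overlapped that of the high stretch. Of the 369 methylated reads from the Hoxd8 start to the Hoxd3 start, the Hoxd8 tile held only 168. The low middle is thus not low throughout.

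**Figure D2:**
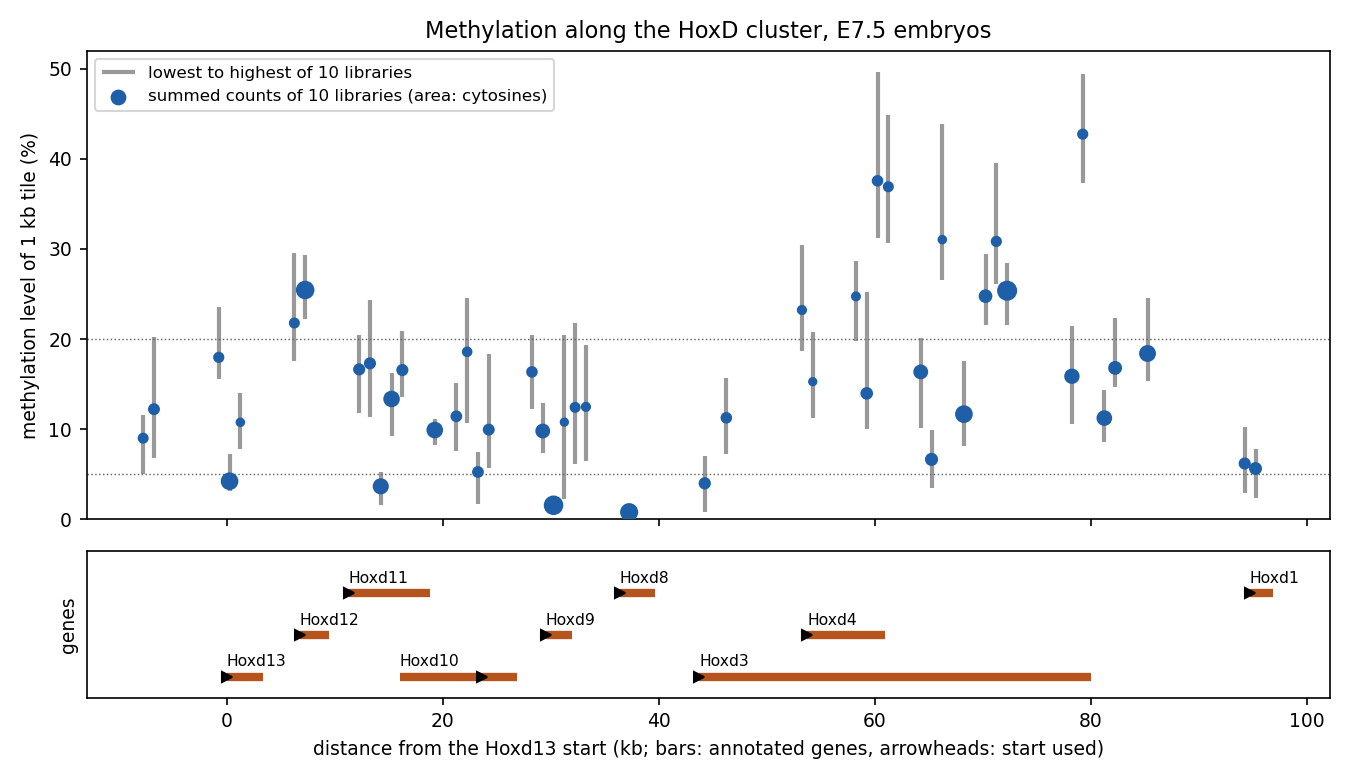
Methylation level (%) of each 1 kb tile with at least 3 measured cytosines against the distance from the Hoxd13 start (kb). Points are summed counts with area by number of cytosines, grey bars run from the lowest to the highest of 10 libraries, and dotted lines mark 5% and 20%; levels are lowest at Hoxd9 and Hoxd8 and highest within the annotated Hoxd3 gene.

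The 5 lowest tiles with at least 10 cytosines each held part of a Hoxd gene. They were chr2:74705000-74705999 in Hoxd8 with 0.781% (0.306% to 1.39%), chr2:74698000-74698999 in Hoxd9 with 1.55% (0.982% to 1.98%) and chr2:74682000-74682999 in Hoxd11 with 3.65% (1.62% to 5.24%). The fourth and the fifth were chr2:74712000-74712999 at the Hoxd3 start with 3.98% (0.773% to 7.05%) and chr2:74668000-74668999 in Hoxd13 with 4.21% (3.14% to 7.24%). Of the 54 cytosines in HoxD without a methylated read in any library, 26 lay in the Hoxd8 tile and 17 in the Hoxd9 tile. A count of 0 allows each of them a level of up to 0.579% to 1.59%, depending on its depth, by 3 counts over the 10 libraries. The share of such cytosines over the autosomes is not given here, so the 54 are a description only.

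Of the 5 highest such tiles, 4 lay in the annotated span of Hoxd3, which covers Hoxd4 as well. The highest was chr2:74747000-74747999 with 42.7% (37.3%, 41.9% and 49.4%), near the end of Hoxd3. Next came chr2:74728000-74728999 with 37.6% (31.2% to 49.7%) and chr2:74729000-74729999 with 36.9% (30.6% to 44.9%), which cover the end of Hoxd4. The tile chr2:74739000-74739999 was at 30.8% (26.1% to 39.6%), and the fifth was chr2:74675000-74675999 at Hoxd12 with 25.4% (22.2% to 29.3%). Of the 11 tiles at 20% or more, 9 overlapped Hoxd3, which overlaps 17 of the 46 tiles.

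Levels could change sharply within 1 kb. Among 20 pairs of adjoining tiles with at least 10 cytosines each, the library ranges lay apart in 9. No such share over the autosomes is given here, so whether 9 of 20 is unusual is not known. The largest step was a rise of 26.9 points from chr2:74746000-74746999 (15.9%) into the tile at the end of Hoxd3. A rise of 23.6 points led from chr2:74727000-74727999 (13.97%) into the end of Hoxd4. The largest drops led into gene starts. The level fell by 13.7 points into the tile of the Hoxd13 start and by 13.6 points into the tile of the second Hoxd11 start.

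The genes are given in their order from Hoxd13 to Hoxd1. Each level covers the cytosines within 1000 bp of the first annotated start in the RefSeq promoter table, which gives the strand. All 9 lie on the plus strand, and whether a cytosine is exonic or intronic was not analysed here.

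Hoxd13 (chr2:74668225-74671603), which shapes the digits and genitalia, was at 6.82% over 74 cytosines (5.83%, 6.80% and 8.95% in the lowest, median and highest library). Its 35425 reads were 7.28% methylated (Wilson interval 7.01% to 7.55%). The level differed on either side of the start, with 17.96% (15.6% to 23.5%) over the 14 cytosines in the farthest 250 bp of the window before it and 2.84% (0.761% to 8.79%) over the 27 between 250 and 499 bp after it.

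Hoxd12 (chr2:74675013-74677705), a neighbour with overlapping roles in the limb, was the most methylated of the 9 starts. It was at 24.9% over 81 cytosines and 38437 reads (22.0%, 24.2% and 28.0%). Unlike Hoxd13 it showed no dip in bins of 250 bp. On a finer scale the CpGs at bases 182 to 215 of the printed stretch, nearest the start, were at 7.26% to 13.9%. Those further upstream were at 18.5% to 37.6%. In each 250 bp bin from 500 bp before to 999 bp after the start, the level was between 20.3% and 29.2%. The 70 cytosines of the gene body had 25.1% (22.1% to 29.2%).

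Hoxd11 (chr2:74679558-74687016), which patterns the forearm and kidney, has a pair of annotated starts with different levels. The first was at 16.9% over 16 cytosines (11.1%, 17.7% and 21.1%), the nearest of them 497 bp away. The second, at 74682323, was at 7.31% over 84 cytosines (5.25%, 7.27% and 9.15%). The ranges did not overlap.

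Hoxd10 (chr2:74684273-74695106, start used 74691891), which acts in the hindlimb and lumbar spinal cord, was at 7.66% over 35 cytosines. Its libraries were spread widely, from 4.28% in library 4 over a median of 7.82% to 11.9% in library 10, and its median coverage was 24 reads. Within the 250 bp before the start the level was 3.62%, and between 500 and 749 bp after it the level was 11.3%. The value depended on which cytosines entered: the 3 CpGs of this window read on both strands, with strands summed, were at 2.84% (0% to 10.6%).

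Hoxd9 (chr2:74697763-74700208), a gene of the posterior trunk and limb, was the most densely measured, with 131 cytosines at 5.68% (5.00%, 5.60% and 6.94%). The level fell across the start. In the 4 250 bp bins that lead up to it the level was 16.3%, 21.003%, 11.02% and 6.83%. It was 2.60% in the first 250 bp of the gene and 1.28% (0.833% to 1.83%) over the 50 cytosines after that. Over the gene body it was 2.39% (1.46% to 2.84%).

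Hoxd8 (chr2:74704615-74707933), which acts in the trunk, was the least methylated, at 0.811% over 48 cytosines and 17607 reads (0.284%, 0.797% and 1.32%). Its Wilson interval was 0.674% to 0.937%, around 0.795% of reads. All the cytosines lay within the gene, the nearest 450 bp after the start, and no 250 bp bin exceeded 0.876%. Gm38462, a long noncoding RNA gene that overlaps Hoxd8, held the same 66 measured cytosines as the Hoxd8 gene body, at 1.95%. Of these, 64 lay in the tile chr2:74705000-74705999 at 0.781%, with 168 of the 369 methylated reads. Most methylated reads of the gene body thus came from the few cytosines outside that tile.

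Hoxd3 (chr2:74711993-74748271), which patterns the neck vertebrae, had a low start inside a methylated gene. The start was at 3.98% over 20 cytosines (0.773%, 3.88% and 7.05%), while the 422 cytosines of the whole annotated gene averaged 19.9% (17.4% to 21.7%). Its end was at 43.3% over 13 cytosines (35.6%, 42.3% and 49.3%). The table gives only this first start of Hoxd3, so starts further along the gene were not analysed here.

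Hoxd4 (chr2:74721978-74729160), which acts in the hindbrain and upper spine, was at 20.4% over 14 cytosines (17.98%, 20.2% and 24.5%), with a median coverage of 100 reads. The level of its end was higher, at 37.3% over 29 cytosines (33.7%, 36.4% and 46.9%), and the library ranges of the start and the end were apart. The microRNA gene Mir10b (chr2:74726070-74726137) lies in the same stretch, and no cytosine of its hairpin was measured. The 12 cytosines within 1000 bp of it were at 20.6% (17.5% to 22.98%).

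Hoxd1 (chr2:74762980-74765142), the last gene of the cluster, was at 5.87% over 43 cytosines (4.36%, 5.95% and 8.83%). The long noncoding RNA gene Haglr, which lies just before it (chr2:74748422-74762896), averaged 15.2% (14.3% to 16.7%) over 148 cytosines. Gm14424, inside Haglr, averaged 17.95% (15.6% to 24.9%), and Hoxd3os1 averaged 7.22% (5.16% to 9.54%) over 36. No cytosine of the noncoding Gm31790, between Evx2 and Hoxd13, was measured.

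**Figure D3:**
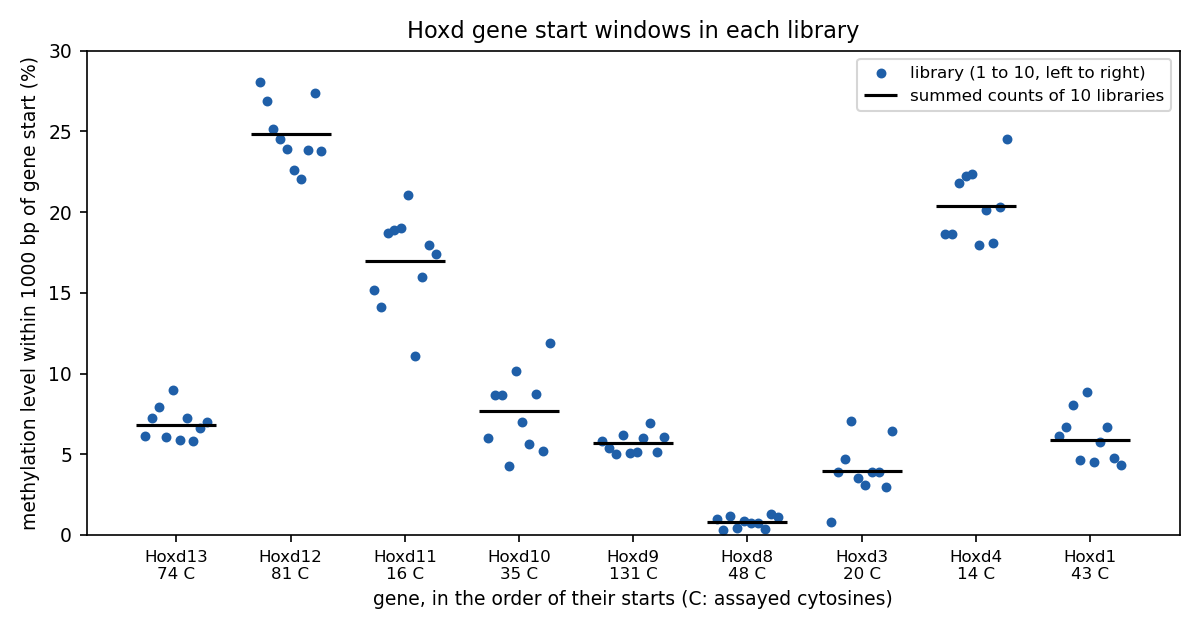
Methylation level (%) within 1000 bp of the first annotated start of each Hoxd gene, in the order of their starts. Points are the 10 libraries and bars the summed counts; Hoxd8 lies at 0.811%, Hoxd12 at 24.9% and Hoxd4 at 20.4%.

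Ordered by level, the starts ran Hoxd8, Hoxd3, Hoxd9, Hoxd1, Hoxd13, Hoxd10, Hoxd11, Hoxd4 and Hoxd12. The library ranges of all 8 neighbouring pairs in this order overlapped. Hoxd10 and Hoxd11 were furthest apart, by 9.29 points, and Hoxd11 was higher in 10 of 10 libraries. With only CpGs read on both strands, which left 8 genes, Hoxd10 took place 2 from the bottom in place of 6. Hoxd9 and Hoxd1 were not ordered at all, 0.186 points apart with Hoxd1 higher in 4 libraries. The gap from Hoxd8 to Hoxd3 was 3.17 points and held in 9 libraries. Of the 9 starts, 2 (22.2%) were under 5%, where 56.1% of 14515 autosomal start windows were. Another 5 (55.6%) were at 5 to 20%, against 17.7%, and 2 (22.2%) were at 20% or more, against 26.3%. This contrast depended on the width of the window. Within 500 bp of the start, 5 of the 8 Hoxd genes with enough cytosines (62.5%) were under 5%, a share near the 67.8% of autosomal windows. Hoxd13, Hoxd9 and Hoxd10 then stood at 2.84%, 2.97% and 4.31%, and Hoxd12 and Hoxd4 at 25.4% and 20.4%. The narrow windows of Hoxd13, Hoxd8 and Hoxd3 held cytosines only after the start, the nearest at 295, 450 and 126 bp. Their low levels thus describe the inside of the gene and not the DNA before it.

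Distance from a Hoxd start changed the level less in HoxD than distance from any start did over the autosomes. The measures are unlike, since starts of other genes inside HoxD, such as Haglr, were not counted for HoxD. Within 250 bp of a Hoxd start the mean was 9.94% (9.03% to 11.5%), above the 5.54% of autosomal cytosines at that distance from any start in the table. That mean was carried by Hoxd12 and Hoxd4, whose 250 bp bins on either side of the start were at 15.2% to 26.6%. The other such bins at first annotated starts were at 1.82% to 6.83%. Between 250 and 500 bp the values were 7.91% and 7.99%. From there they parted. Between 1000 and 2000 bp HoxD had 13.4% (10.7% to 14.7%) and the autosomes 33.2%, and between 2000 and 5000 bp 12.9% (10.98% to 14.4%) and 47.3%. Between 5000 and 50000 bp HoxD reached 19.2% (16.96% to 20.5%), over 524 cytosines, and the autosomes 54.3%. Most of these HoxD cytosines lay in the stretch between Hoxd4 and Hoxd1. No HoxD cytosine lay further from a Hoxd start, and the 508041 autosomal cytosines that did were at 53.3%. The autosomal values leave out 74389 cytosines of 1 chromosome, for which starts were not used here.

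**Figure D4:**
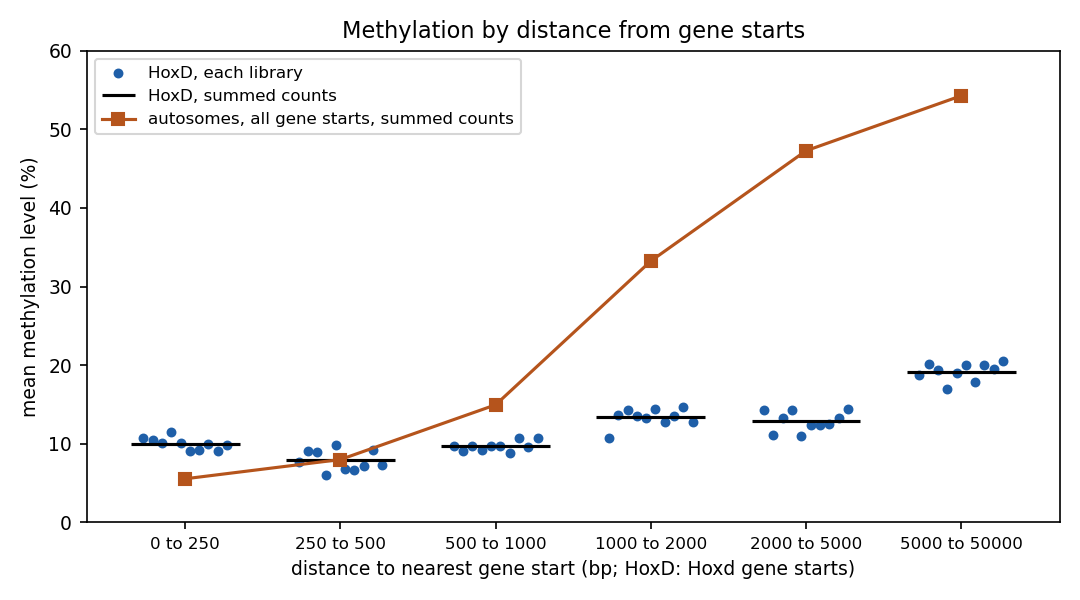
Mean methylation level (%) by distance to the nearest gene start (bp), for HoxD cytosines and Hoxd starts (points for the 10 libraries, bars for summed counts) and for autosomal cytosines and all starts of the promoter table (squares). HoxD goes from 9.94% within 250 bp to 19.2% between 5000 and 50000 bp, and the autosomes go from 5.54% to 54.3%.

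The HoxA, HoxB and HoxC clusters had means near that of HoxD. Their spans ran from the first to the last end of their Hox genes. The HoxD span also takes in DNA beyond Hoxd13 and Hoxd1, so the spans are not fully alike. That of HoxB is the longest, 173938 bp against 110000 bp for HoxD. HoxA was at 13.3% (12.9% to 14.5%), HoxB at 15.9% (15.2% to 16.7%) and HoxC at 12.5% (12.05% to 13.03%). HoxD exceeded HoxA by 0.639 points, with differences from -0.148 to 1.37 points and 8 of 10 libraries above it. HoxB was higher than HoxD in 10 of 10 libraries, and the difference of HoxD minus HoxB was -1.98 points. HoxC was lower in 10 of 10 libraries, by 1.46 points. Within 1000 bp of Hox starts HoxD was instead 0.675 points above HoxB, which has few starts in the table. There it was 0.151 points above HoxC, higher in 7 of 10 libraries, but HoxC has only 1 start in the table, that of Hoxc4. No test was made, since the libraries mix the study's groups.

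Single genes differed more than the clusters did. Of the other 30 Hox genes, gene bodies were under 5% in 3, at 5 to 20% in 25 and at 20% or more in 2, with a median of 10.6%. Of the 9 Hoxd gene bodies, 3 were under 5%, 4 at 5 to 20% and 2 at 20% or more, with a median of 10.4%. Hoxc12, the paralog of Hoxd12, was at 11.4% (8.996% to 15.2%) over its gene body, and Hoxd12 at 25.1% (22.1% to 29.2%). Hoxb8 and Hoxc8, the paralogs of Hoxd8, were at 6.76% (5.24% to 8.41%) and 9.46% (7.36% to 11.9%), and Hoxd8 at 1.95% (0.990% to 2.80%). In all 3 cases the ranges did not overlap. These genes were singled out because their Hoxd member stood at an end of the range.

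On both sides of the cluster few CpGs were measured, 337 in the 110 kb beyond Hoxd13 and 69 in the same length beyond Hoxd1. They averaged 10.1% (9.11% to 11.4%) and 12.2% (11.3% to 13.5%), below HoxD in 10 of 10 libraries each. These means rest largely on a few genes and do not describe the DNA between them. Of the 69 cytosines beyond Hoxd1, 52 lay in the Mtx2 start window. Beyond Hoxd13, 54 lay in the Lnpk start window and many of the rest in Evx2. The Evx2 gene body, which reaches into HoxD, was at 7.96% over 284 cytosines. Evx2, a homeobox gene next to Hoxd13, was at 13.4% around its start (10.7%, 13.01% and 18.98%). Lnpk and Mtx2, genes of the endoplasmic reticulum and mitochondria that lie further out, were at 0.817% (0.286% to 1.43%) and 1.18% (0.423% to 3.16%). Their starts were thus as low as that of Hoxd8, and the ranges overlapped.

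**Figure D5:**
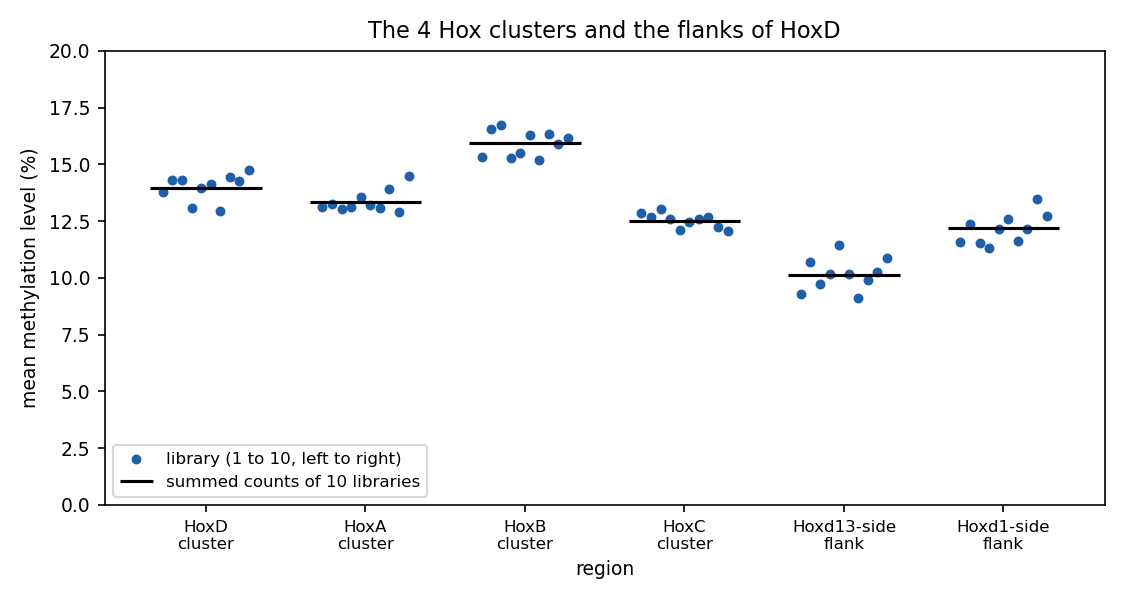
Mean methylation level (%) of the HoxD, HoxA, HoxB and HoxC clusters and of the regions on either side of HoxD. Points are the 10 libraries and bars the summed counts; the clusters lie between 12.5% and 15.9%.

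Single cytosines ranged widely between libraries. Over the 671 HoxD cytosines with a coverage of 20 or more in all libraries, the median distance from the lowest to the highest library was 18.9 points. The widest, at 74732721 in Hoxd3, ran from 5.13% of 39 reads in library 10 to 67.5% of 40 reads in library 3. The cytosine at 74727740 in Hoxd4 ran from 14.3% to 69.7%, and the one at 74753261 in Haglr and Gm14424 ran from no methylated read in 30, which allows up to 10% by counting error, to 55.0% of 40. No library was at the same end of more than 1 of these 3 cytosines. The sources used here do not say whether copies of a fragment were removed before counting, and these ranges were not tested against counting error. Where both strands were read they gave like levels, with a median difference of 1.80 points at the 439 CpGs read on both and a Pearson r of 0.955 across CpGs, which are not independent.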

How the data were processed

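The authors deposited 1 table of read counts per CpG cytosine, with the coverage, the methylated reads and the unmethylated reads of each of 10 libraries, per the file headers. The values are not normalized. Tools named in the submitters' processing notes are methylKit, Bismark and Trim Galore, with mm10 as the build. Versions, settings and any removal of duplicate reads are not stated in the sources used here. It was checked that the coverage equals the sum of both counts throughout and is never under 10, so thinly read cytosines are left out of the table. All 30 columns could be matched to no sample, and the planned test of control against arsenic was not run. The libraries served only as unassigned samples, with ranges and no tests.

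Levels were computed with Python 3.11.15, numpy 2.4.6, pandas 2.3.3 and scipy 1.17.1. Gene spans, starts and promoter sequences came from RefSeq (GRCm38.p6), and all 9 Hoxd genes matched by symbol. All measured promoter cytosines lay at a CG of those sequences. Windows and tiles needed at least 3 cytosines. The averaging over tiles was tested on simulated data. The rule for named items took all 9 Hoxd genes, the other genes of the region, Evx2, Lnpk and Mtx2, the 5 highest and 5 lowest tiles of at least 10 cytosines, the 3 cytosines with the widest range at a coverage of at least 20, and the paralogs of the highest and lowest gene. The members and lists were chosen with earlier results of these data known. The second start of Hoxd11, the limit for CpG-dense tiles and the count of starts under 5% within 500 bp were added after seeing the data.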

Additional observations from a re-analysis of the deposited data

Results flagged for a closer look

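Of 45 values checked for 1 library standing apart from the other 9, 5 were marked because the gap to the nearest library was large for the range of all 10. Chance marks about 1 in 20. The Hoxd13 gene body was at 7.61% in library 5 and at 3.58% to 5.52% in the others. The tile chr2:74668000-74668999, which holds most of the same cytosines, was at 7.24% in library 5 and at 3.14% to 4.97% in the others. The end of Hoxd4 was at 46.9% in library 3 and at most at 39.4% elsewhere, and the tile chr2:74739000-74739999 was at 39.6% in library 6 and at most at 32.6% elsewhere. The Mtx2 start was at 3.16% in library 9 and at most at 1.36% elsewhere. These are values of single libraries of unknown group.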

How the results depend on the processing

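No paired analysis was possible because the numbered columns match no sample, and leaving out single embryos in the comparison of the groups was not run for the same reason. The cluster mean of 13.97% was 15.2% with a coverage minimum of 20 and 15.05% when weighted by reads, shifts larger than the SD of the libraries, and ran from 13.9% to 14.1% with each library left out in turn. The median of the 9 start windows, 6.82%, was 4.15% within 500 bp, 10.4% over gene bodies and 4.76% with both strands summed (8 genes each for the first and the last), and 6.66% to 6.95% with each library left out. The tiles at 20% or more numbered 7 of 31 when 2000 bp long. HoxD minus HoxA was 1.35 points with a coverage minimum of 20. HoxD minus HoxB was -0.666 with that minimum, -0.411 by reads, and 0.675 near Hox starts, where its sign turned. HoxD minus HoxC was 2.69 points with the minimum of 20 and 0.151 near Hox starts, where HoxC has only 1 start in the table. Of single starts, Hoxd12 and Hoxd1 moved by less than the SD of the libraries under each setting tried. A minimum of 10 reads in every library limits what can be said of thinly covered CpGs. The causes of these shifts were not tested.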
